A study of Homo sapiens with 8 samples.

Results

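hsa-miR-375, hsa-miR-7-5p and hsa-miR-7-1-3p (below without the species prefix) are 3 mature human microRNAs (miRNAs) known from endocrine cells, and they were followed here across 8 libraries of HCT116, a human colorectal carcinoma cell line. They were chosen by name, with their counts in these libraries already known, from the 1818 mature names listed in any library. The cells had been rescued with wild-type DICER (WT) or with DICER carrying 1 amino acid substitution, which is R1855L, R821H or R1003Q, and each of these 4 groups has 2 libraries. The labels do not give the vector, the promoter, the number of clones or the DICER status of the host cells before rescue, and they list no other treatment. Whether the 2 libraries of a group are 2 cultures or 1 is also not given, so errors and p-values measure the spread between libraries, which may be technical. Because the members were picked with their values in view, their levels and fold changes are given as a description without p-values.

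DICER cuts a precursor hairpin into a duplex of a 5p and a 3p strand, and 1 strand usually enters Argonaute and guides it to target mRNAs through its seed, bases 2 to 8. miR-375 is a hallmark miRNA of pancreatic islets that restrains insulin secretion, and it is also made in intestinal epithelium. miR-7 is abundant in islets and in neuroendocrine and neural cells, dampens growth factor signalling and is bound by the circular RNA CDR1as. miR-7-5p is the guide strand, and miR-7-1-3p is the opposite strand of 1 of its precursors.

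The mature sequences are shown because they decide which hairpins a count can be assigned to. They are from RefSeq (GRCh38.p14), 5′ to 3′, with the seed in capitals. The name miR-375 carries no strand suffix in the count tables and was matched to the 3p strand of MIR375. miR-7-2-3p, the opposite strand of another miR-7 precursor, is shown for comparison.
hsa-miR-375: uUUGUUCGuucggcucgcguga
hsa-miR-7-5p: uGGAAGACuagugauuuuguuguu
hsa-miR-7-1-3p: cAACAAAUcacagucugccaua
hsa-miR-7-2-3p: cAACAAAUcccagucuaccuaa

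In the RefSeq hairpin of MIR375, 64 bases long, the counted strand in capitals ran from base 40 to base 61.
MIR375 hairpin: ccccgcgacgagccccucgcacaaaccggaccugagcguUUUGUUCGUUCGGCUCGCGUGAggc
The hairpin lies on the minus strand of chromosome 2 at 219001645 to 219001708 (GRCh38, GENCODE release 29) in no other annotated gene, 1138 bases from CFAP65 and 8224 bases from CRYBA2. The opposite strand, miR-375-5p, is not listed in any of the 8 libraries, so a strand ratio was not computed for miR-375. Whether the annotation used for counting held that name is not stated, so its absence does not show that the strand had no reads.

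miR-7-5p has more than 1 source. MIR7-1 lies on chromosome 9 at 83969748 to 83969857 (GRCh38, minus strand) inside HNRNPK, in an intron of 6 of its transcripts and overlapping an exon of 1. MIR7-3 lies on chromosome 19 at 4770670 to 4770779 in an intron of the non-coding host gene MIR7-3HG, and MIR7-2 on chromosome 15 at 88611825 to 88611934. The miR-7-5p sequence above was found whole in the RefSeq hairpins of MIR7-2 (bases 32 to 55) and MIR7-3 (bases 31 to 54), and RefSeq also lists it at MIR7-1. Its counts were whole numbers in 3 libraries and multiples of 1/3 of a read in the other 5, so a read of it cannot be assigned to 1 locus. miR-7-1-3p and miR-7-2-3p share a seed and differ by A10C, G17A, A20U and U21A (miR-7-1-3p base, position from the 5′ end, miR-7-2-3p base). No other human mature miRNA in the RefSeq table has the seed of miR-375 or of miR-7-5p. That reference lacks the MIR7-1 hairpin and some mature names, among them miR-151a-5p, miR-28-5p and miR-660-5p, so this search is incomplete.

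The opposite strands show which miR-7 loci left reads. miR-7-1-3p had 9508 reads over the 8 libraries and miR-7-2-3p had 11, which is 0.116% of their sum (exact Clopper-Pearson 95% interval 0.0577 to 0.207). In replicates 1 and 2, WT held 2 and 4 reads of miR-7-2-3p, R1855L 0 and 0, R821H 2 and 0, and R1003Q 2 and 1. In the 3 libraries without one (R1855L replicates 1 and 2 and R821H replicate 2), the Clopper-Pearson 95% interval reached 0.177%, 0.974% and 0.794%. No difference between groups was therefore detectable at this depth. miR-3529-3p, annotated on the opposite genomic strand of MIR7-2, is the exact reverse complement of miR-7-5p and had 1 read in all, in WT replicate 2, against 79204 for miR-7-5p. These counts do not give the share of miR-7-5p from each locus, and no 3p strand of MIR7-3 is among the names in the tables.

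Library totals ran from 462805 to 4269231 reads and fell into 3 deep libraries (WT replicate 2, R1855L replicate 1 and R821H replicate 1) and 5 shallow ones, which include both R1003Q libraries. All 3 members passed the filter on low counts, as did 625 of the 1818 names. Levels are counts scaled by library total and the trimmed mean of M-values (TMM) and given as CPM (counts per 1000000 reads), and 95% counting intervals are exact Poisson intervals that cover counting error only. In WT, miR-7-5p ranked 33 among the 625 names with 5710 CPM, miR-7-1-3p ranked 127 with 642 CPM, and miR-375 ranked 312 with 60.2 CPM.

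**Figure D1:**
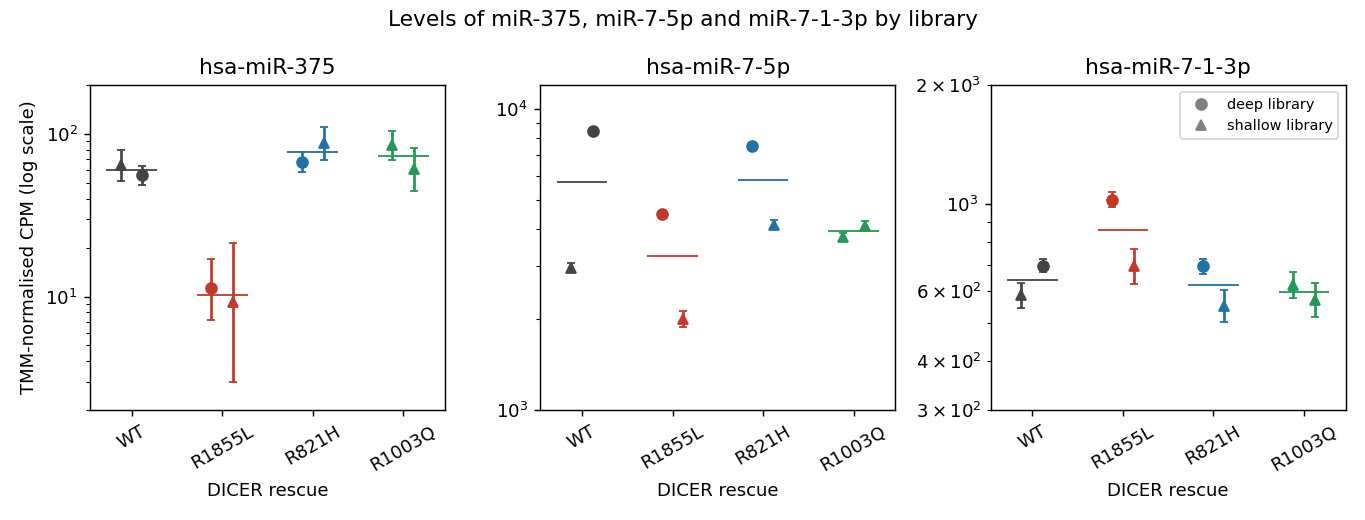
Level of each miRNA (TMM-normalised CPM, log axis) in the 2 libraries of each DICER rescue group, with exact Poisson 95% intervals as bars and the group mean as a line. Circles are the 3 deep and triangles the 5 shallow libraries. The R1855L libraries are the lowest for miR-375 (11.3 and 9.20 CPM), and for miR-7-5p the deep library is above the shallow one in WT, R1855L and R821H.

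miR-375 was lower in R1855L than in every other library and stood between 55.9 and 88.1 CPM in WT, R821H and R1003Q. In WT it had 85 and 215 reads, which is 64.6 CPM (interval 51.6 to 79.8) and 55.9 CPM (48.7 to 63.9). In R1855L it had 23 and 5 reads, or 11.3 CPM (7.17 to 17.0) and 9.20 CPM (2.99 to 21.5). None of the counting intervals of the R1855L libraries reaches those of WT. In R821H it stood at 67.2 and 88.1 CPM, and in R1003Q at 84.9 and 61.1 CPM.

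Ordered by mean level, R821H had 77.7 ± 14.8 CPM (SD, n = 2), R1003Q 73.0 ± 16.8, WT 60.2 ± 6.11 and R1855L 10.3 ± 1.49. R821H overlapped R1003Q, and R1003Q overlapped WT. Both R821H libraries were above both WT libraries, a placement that 15.4% of the 625 tested names showed in that comparison. Both R1855L libraries were below the other 6 libraries, as were those of 14.4% of the tested names. The 2 libraries of a group differed by 1.15-fold in WT, 1.23-fold in R1855L, 1.31-fold in R821H and 1.39-fold in R1003Q.

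The fitted level of miR-375 in R1855L was 5.66-fold below WT, a log2 fold change of -2.50 (SE 0.35, edgeR, 95% interval -3.31 to -1.69). It had rank 14 from the lowest of the 625 tested names, where the median name had 0.13 and the median name ending in 3p had -0.06. With calls made at a Benjamini-Hochberg adjusted p under 0.05 over all tested names, 5.76% of them were called in this comparison, 34 lower (5.44%) and 2 higher (0.32%). miR-375 was 1 of the 34, whose log2 fold changes ran from -5.11 to -1.04 with a median of -2.02, and the other 2 members were not called. These counts come from the contrast the members were chosen on and describe it only.

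miR-375 stood below WT in R1855L at both depths. Between the deep libraries its log2 ratio of R1855L to WT was -2.31, and between the shallow ones -2.81. Its slope on library total, with group in the model, was -0.07 log2 units per doubling of reads (SE 0.12). The value in R1855L rests on 28 reads, and leaving out 1 library at a time moved the log2 fold change between -2.81 and -2.39. In a fit to only the 4 libraries of WT and R1855L it was -2.52 (SE 0.42) and was not among the 2 names called there.

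Against WT, miR-375 had a log2 fold change of 0.36 (SE 0.30) in R821H and 0.29 (SE 0.30) in R1003Q. The 95% intervals ran from -0.33 to 1.06 and from -0.41 to 0.99, and both hold 0. edgeR called 0 of 625 names in each of these comparisons (percent called 0), while 20 and 31 names had an unadjusted p below 0.05. By DESeq2 the counts were 1 and 0. Set directly against R1855L, miR-375 was higher by 2.86 (SE 0.35) in R821H and by 2.79 (SE 0.35) in R1003Q, comparisons that reuse the R1855L libraries and in which 3.84% and 3.68% of all names were called. Between R1003Q and R821H the difference was -0.07 (SE 0.30), and 0% of names were called.

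**Figure D2:**
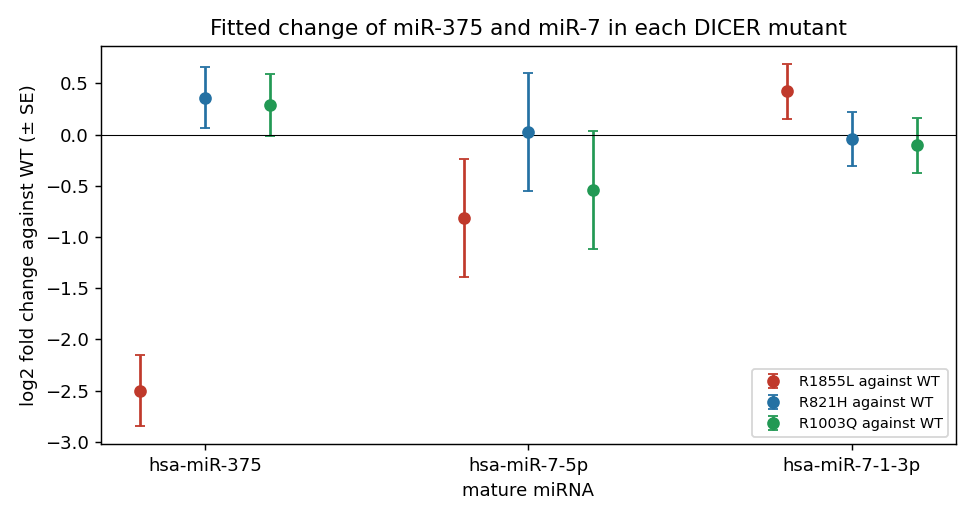
Fitted log2 fold change of each miRNA against WT in R1855L, R821H and R1003Q; points are edgeR estimates, bars are ± 1 SE, and the horizontal line marks no change. miR-375 in R1855L is at -2.50, and the other 8 values lie between -0.81 and 0.42.

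miR-7-5p showed no shift between groups larger than the spread between replicates. Its values rest on 1089 to 32477 reads per library. WT replicates 1 and 2 had 2973 and 8448 CPM of miR-7-5p. The R1855L libraries had 4493 and 2003 CPM, the R821H libraries 7522 and 4125, and the R1003Q libraries 3754 and 4083. The WT libraries alone span most of the range of the other 6 and differ from each other by 2.84-fold. The 2 R1855L libraries differed by 2.24-fold, those of R821H by 1.82-fold and those of R1003Q by 1.09-fold.

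By mean, R821H had 5823 ± 2402 CPM (SD, n = 2), WT 5710 ± 3871, R1003Q 3919 ± 233 and R1855L 3248 ± 1760. Neighbours in that order overlapped. Both R1003Q libraries were below both R821H libraries (4083 against 4125 CPM at the closest), as in 16.8% of tested names. The log2 fold changes against WT were -0.81 (SE 0.58) in R1855L, 0.03 (SE 0.57) in R821H and -0.54 (SE 0.58) in R1003Q. Without WT replicate 2, the deepest library, these became 0.06, 0.90 and 0.29, so the fitted sign in R1855L and R1003Q turned. For R1855L, that refit sets a shallow WT library against a deep and a shallow one. Paired by depth, miR-7-5p was lower in R1855L than in WT both times, at log2 -0.91 (deep) and -0.57 (shallow). The shallow pair does not use WT replicate 2. The R1003Q libraries, both shallow, stood above the shallow WT library by 0.40 log2 units.

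The level of miR-7-5p rose with the depth of the library in WT, R1855L and R821H but not in R1003Q. The deep library of WT, R1855L and R821H was the higher, at 8448, 4493 and 7522 CPM against 2973, 2003 and 4125. With group in the model, miR-7-5p rose by 0.54 log2 units per doubling of the library total (SE 0.08), or by 0.46 to 0.58 with 1 library left out. This slope was looked at after the levels were seen and is given as a description. Of all 625 names, 32% had a called slope, the median slope of all 625 was -0.03, and that of miR-7-5p had rank 39 from the highest. R1003Q has no deep library, and its larger library went the other way. Replicate 1 of R1003Q, with 1143373 reads, had 3754 CPM, and replicate 2, with 675934 reads, had 4083 CPM. With the library total as a covariate, the log2 fold changes of miR-7-5p were -0.16 (SE 0.24) in R1855L, 0.35 (SE 0.22) in R821H and 0.36 (SE 0.25) in R1003Q.

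**Figure D3:**
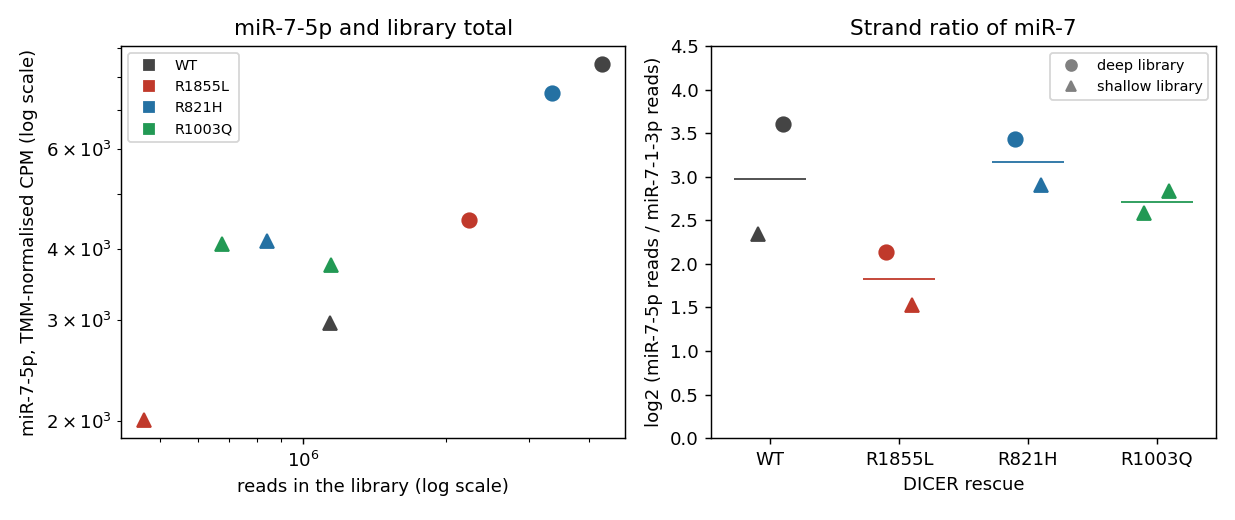
Left, miR-7-5p (TMM-normalised CPM) against reads in the library, both on log axes, 1 point per library. Right, log2 ratio of miR-7-5p to miR-7-1-3p reads by group, with the mean as a line; circles are deep and triangles shallow libraries. The 2 highest points on the left are WT replicate 2 and R821H replicate 1, and on the right the R1855L libraries (2.13 and 1.53) are the lowest.

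miR-7-1-3p, the less abundant strand, varied little in WT, R821H and R1003Q and was highest in 1 R1855L library. Its reads per library ran from 377 to 2679. WT had 586 and 697 CPM, R1855L 1024 and 694 CPM, R821H 694 and 551 CPM, and R1003Q 624 and 570 CPM. R1855L replicate 2, at 694 CPM, lay below WT replicate 2, so these groups overlap. By mean, R1855L had 859 ± 234 CPM (SD, n = 2), WT 642 ± 78.1, R821H 623 ± 101 and R1003Q 597 ± 38.1. Both R1003Q libraries were below both R1855L libraries, as in 20.6% of tested names, and neighbours in the order of the means overlapped.

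The log2 fold changes of miR-7-1-3p against WT were 0.42 (SE 0.27) in R1855L, -0.04 (SE 0.27) in R821H and -0.10 (SE 0.27) in R1003Q. Without R1855L replicate 1 the value in R1855L was 0.01. With the library total as a covariate it was 0.61 (SE 0.20) and was called, in a model that called 25.9% of all names in this comparison. The slope of miR-7-1-3p on library total was 0.19 per doubling (SE 0.07).

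The ratio of the miR-7 strands, which library scaling cannot move, was lowest in R1855L. For each miR-7-1-3p read, the WT libraries had 5.07 and 12.1 reads of miR-7-5p. The R1855L libraries had 4.39 and 2.89, the R821H libraries 10.8 and 7.47, and the R1003Q libraries 6.01 and 7.15. In log2 units the means were 2.97 ± 0.89 (SD, n = 2) in WT, 1.83 ± 0.43 in R1855L, 3.17 ± 0.38 in R821H and 2.71 ± 0.18 in R1003Q. Both R1855L libraries were below the other 6, as in 5.71% of 175 strand pairs, but the gap to WT replicate 1 (2.13 against 2.34) was smaller than the spread within WT. That gap sets a deep R1855L library against a shallow WT library. At like depth, R1855L had 2.13 against 3.60 in WT (deep) and 1.53 against 2.34 (shallow).

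Against WT the log2 ratio differed by -1.14 (SE 0.49, limma) in R1855L, 0.20 (SE 0.49) in R821H and -0.26 (SE 0.49) in R1003Q. Among 175 strand pairs with at least 80 reads per strand the R1855L value had rank 7 from the lowest, against a median of 0.22. limma called 7.43% of the pairs in R1855L and 0% in R821H and R1003Q, and the miR-7 pair was in none of these calls. The ratio pools all sources of miR-7-5p over 1 source of the 3p strand. In R1855L it was -0.51 without WT replicate 2 and -1.77 without WT replicate 1. With the library total as a covariate the differences were -0.75 (SE 0.34, limma) in R1855L, 0.34 (SE 0.32) in R821H and 0.20 (SE 0.35) in R1003Q, where the direction turned.

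Some other miRNAs followed the members closely. Likeness was measured over the 8 libraries as the root-mean-square (RMS) distance between log2 CPM profiles, each centred on its own mean, among 336 names with at least 50 CPM. The libraries share depth and group, so likeness describes these 8 profiles only. Members were left out of each other's search. The 5 names closest to miR-375 were miR-3200-3p (RMS distance 0.14 log2 units), miR-222-3p (0.19), miR-1307-3p (0.30), miR-615-3p (0.42) and miR-140-3p (0.45), where the median name was at 1.29. All 5 are 3p strands, as is miR-375, where 129 of the 336 names compared (38.4%) end in 3p. The share of 3p strands among names lower in R1855L, a nearer background, was not computed. The log2 fold changes of the 5 in R1855L against WT were -2.64, -2.16, -2.02, -2.82 and -1.53. In R821H and R1003Q they lay between 0.10 and 0.66. These names were picked for likeness to a profile lowest in R1855L, so their falls there follow from the search. Their mature sequences, from RefSeq with the seed in capitals, are shown to compare them with miR-375 above.
hsa-miR-3200-3p: cACCUUGCgcuacucaggucug
hsa-miR-222-3p: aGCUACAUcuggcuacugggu
hsa-miR-1307-3p: aCUCGGCGuggcgucggucgug
hsa-miR-615-3p: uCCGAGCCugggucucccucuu
hsa-miR-140-3p: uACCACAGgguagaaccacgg
The 6 miRNAs carry 6 different seeds, so none shares its seed with another of them.

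The profile of miR-7-5p was closest to miR-301a-5p (RMS distance 0.23 log2 units), miR-151a-5p (0.25), miR-29b-3p (0.25), miR-340-5p (0.26) and miR-95-3p (0.29), against a median of 0.69. That of miR-7-1-3p was closest to miR-361-5p (0.09), miR-26a-1-3p (0.13), miR-28-5p (0.13), miR-9-3p (0.14) and miR-660-5p (0.14), against a median of 0.45. miR-9-3p belongs to the list described next.

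Other miRNAs linked to islets and neuroendocrine cells were followed as a list. Of its 18 names 17 were found and 12 tested, and edgeR and DESeq2 called 0 of the 12 in each mutant. With 5.76% of all names called in R1855L and 0% in R821H and R1003Q, a count of 0 among 12 is near the background. At an unadjusted p under 0.05 there was 1 in R1855L (miR-149-5p, log2 0.63, SE 0.24) and 0 in R821H and R1003Q. Their median log2 fold changes were 0.18, 0.06 and -0.12 in R1855L, R821H and R1003Q, beside 0.13, 0.04 and 0.06 over all tested names. The most abundant in WT were miR-183-5p and miR-30d-5p. miR-183-5p, of a cluster known from sensory organs, had 6300 ± 1647 CPM (SD, n = 2) with WT DICER and 12687 ± 7318 with R1855L (log2 1.01, SE 0.45). miR-30d-5p had 5821 ± 1803 and 8828 ± 1663 CPM (log2 0.60, SE 0.29). The list summed to 17970 to 20205 CPM in WT libraries and 26292 to 33209 in those of R1855L. In R821H it summed to 21504 to 22279 CPM and in R1003Q to 21688 to 22807. Every mutant library was above both WT libraries, and how often sums of other names are placed so was not tested. miR-183-5p, the most abundant in WT, had a slope on library total of -0.40 log2 units per doubling (SE 0.07).

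The names of that list spread widely in level. miR-9-5p and miR-9-3p, from a neural hairpin, had 694 ± 243 and 134 ± 35.8 CPM (SD, n = 2) in WT, and the neural names miR-153-3p and miR-132-3p had 386 ± 73.8 and 189 ± 37.2 CPM, all above miR-375. Others were close to 0, and these examples were chosen after their values were seen. miR-124-3p, a neuronal miRNA, had at most 1.67 reads in any library, miR-129-2-3p was not listed, and miR-184, an islet miRNA, had 1 to 17 reads. The exocrine pancreas names miR-216a-5p, miR-216b-5p and miR-217 had at most 6, 7 and 3 reads.

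In the intestinal epithelium list, 3 of 10 tested names were called lower in R1855L, where 5.44% of all 625 names were. The list was chosen with earlier results of these data known, so this count and the adjusted p-values below are a description. None of the 10 was called in R821H or R1003Q by edgeR or DESeq2 (0 at an unadjusted p under 0.05), where edgeR called 0% of all names. miR-203a-3p, an epithelial differentiation miRNA, fell from 1143 ± 32.1 CPM (SD, n = 2) in WT to 377 ± 24.2 CPM (log2 -1.60, SE 0.22, edgeR adjusted p = 0.00828). miR-141-3p and miR-429, both of the miR-200 family that restrains ZEB factors, fell from 35.0 ± 0.12 to 12.9 ± 2.63 CPM (log2 -1.39, SE 0.30, edgeR adjusted p = 0.0422) and from 638 ± 31.0 to 312 ± 35.4 CPM (log2 -1.04, SE 0.21, edgeR adjusted p = 0.0306). The R1855L libraries of these 3 lay below both WT libraries, as did those of 21.4% of all names.

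The other members of that list stayed uncalled, and the list's median in R1855L was -0.15. Among them are the other miR-200 names on the list, which did not share the fall. In R1855L miR-200a-3p had a log2 fold change of -0.13 (SE 0.23), miR-200b-3p 0.18 (SE 0.29) and miR-200c-3p 0.25 (SE 0.51). The most abundant, miR-31-5p, a miRNA raised in colorectal cancers, had 45906 ± 50.2 CPM in WT and 40620 ± 7489 in R1855L (log2 -0.18, SE 0.26), and miR-196b-5p had 1896 ± 9.17 and 2475 ± 239 CPM (log2 0.38, SE 0.22). miR-203a-3p stayed called under 15 of 16 alternatives, miR-429 under 5 of 16 and miR-141-3p under 3 of 15, and every single library left out ended the calls of miR-141-3p and miR-429. Over these alternatives the log2 fold changes ran from -1.74 to -1.57, from -1.18 to -0.99 and from -1.76 to -1.26 for the 3 in that order.

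**Figure D4:**
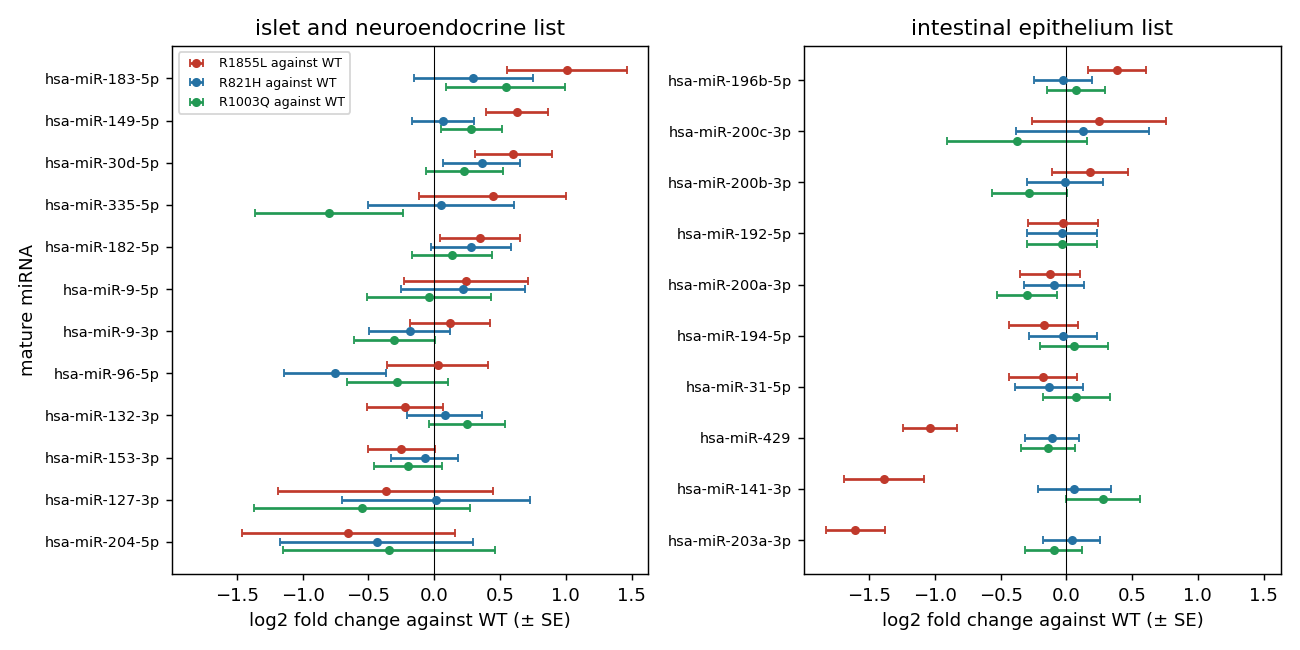
Log2 fold change against WT (± SE) of the tested names on the islet and neuroendocrine list (left, 12 names) and the intestinal epithelium list (right, 10 names), sorted by their value in R1855L. In R1855L miR-203a-3p, miR-141-3p and miR-429 lie at -1.60, -1.39 and -1.04. The lowest tested islet and neuroendocrine name is at -0.65 in R1855L, -0.75 in R821H and -0.80 in R1003Q.

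Markers of cells that a cell line should lack were present in part, and their part in the results was not tested. The 3 exocrine pancreas names summed to between 0.76 and 4.16 CPM in all libraries. The 5 mesenchymal names summed to 659 to 728 CPM in WT and 711 to 826 CPM in R1855L (638 to 765 in R821H, 666 to 708 in R1003Q), nearly all of it miR-145-5p (633 ± 52.4 CPM in WT), with 0 of 3 tested names called in any mutant by edgeR or DESeq2 (0 at an unadjusted p under 0.05). miR-143-3p, made from the same cluster, had 33.9 ± 6.79 CPM in WT. The 8 blood names summed to 705 to 790 CPM in WT, 832 to 933 in R1855L, 635 to 759 in R821H and 647 to 664 in R1003Q. They were led by miR-142-3p (351 ± 24.3 CPM in WT) and miR-451a (203 ± 73.0 CPM), while miR-155-5p had at most 1 read. Of 5 tested blood names 0 were called by edgeR or DESeq2, with 1 at an unadjusted p under 0.05, miR-142-5p in R821H. The mesenchymal and blood sums in WT are above miR-375 (60.2 CPM) and near miR-7-1-3p (642 CPM). In such bulk libraries, fewer cells making a miRNA and less of it per cell cannot be told apart.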

How the data were processed

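Per the labels' protocols, libraries were made by AQ-seq, a small-RNA method with reduced ligation bias, from TRIzol-extracted total RNA. The submitters' processing notes name cutadapt, BWA, bedtools, hg38 and mm10; what each did, and the miRNA annotation release, is not stated by the labels or files. The deposited tables hold estimated counts per mature name, not normalised; absent names were set to 0 and counts rounded for tests. Poisson and Clopper-Pearson intervals cover counting error only. Those of log2 fold changes come from the SE of the edgeR fit and include the spread between libraries.

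Groups came from sample titles. edgeR 4.0.16 (R 4.3.3) kept 625 of 1818 names by filterByExpr, at least 99.8% of reads in every library, scaled by TMM, and fitted 1 robust quasi-likelihood model to all 8 libraries. SE is the absolute log2 fold change over the square root of F. Strand ratios (pseudocount 0.5) used limma 3.58.1. Alternatives included DESeq2 1.42.0. Scripts were tested on simulated data. Libraries were classed as deep or shallow by the largest step between sorted log totals.

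Members and lists were chosen with earlier results of these data known. Named miRNAs are the members, their hairpin partners, the called and the 2 most abundant names per list, and the 5 closest profiles per member; further names on the lists and those singled out by an unadjusted p were named after their values were seen.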

Additional observations from a re-analysis of the deposited data

How the results depend on the processing

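The log2 fold change of miR-375 in R1855L stayed under -2 in all 16 alternatives. These refits reuse the libraries that miR-375 was chosen on and describe it only. In the fit to only the 4 libraries compared, miR-375 was not called. The count of called miRNAs in R1855L, 36 by edgeR, was 14 with library totals and no composition factor, 2 with only the 4 libraries compared, 19 with the replicate block, 162 with the log2 library total as a covariate, and 52 (DESeq2) or 53 (no filter). In R821H it was 1 by DESeq2 and 4 with the covariate, against 0. For R1003Q, miR-7-1-3p had -0.26 with no filter and 0.15 with the covariate, and miR-7-5p had 0.36 with the covariate; the cause was not tested.

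Leaving out 1 library at a time gave 15 to 27 calls in R1855L (17 without WT replicate 1, 15 without R1855L replicate 1, 19 without either R1003Q library) and 0 in R821H and R1003Q. The log2 fold change of miR-375 ranged from -2.81 to -2.39 in R1855L, from 0.13 to 0.46 in R821H and from -0.016 (without R1003Q replicate 1) to 0.46 in R1003Q. That of miR-7-5p ranged from -1.59 to 0.06 in R1855L, from -0.54 to 0.90 in R821H and from -1.11 to 0.29 in R1003Q, the upper ends without WT replicate 2. That of miR-7-1-3p ranged from 0.0092 to 0.66, from -0.30 to 0.085 and from -0.22 to -0.07. The strand ratio of miR-7 ranged from -1.77 to -0.51 in R1855L, from -0.43 to 0.83 in R821H and from -0.89 to 0.37 in R1003Q, the lower ends without WT replicate 1 and the upper ends without WT replicate 2. Where an arm kept 1 library, it was assumed to vary like the others.

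Replicate numbers are shared by the groups, but the labels do not say that they mark a shared batch. Correlations between groups of the replicate 1 minus replicate 2 differences over miRNAs ran from -0.70 to 0.57. The deep library is replicate 2 in WT but replicate 1 in R1855L and R821H. These correlations therefore cannot separate depth from a shared batch, and the numbers were not taken as a pairing. With the replicate block miR-375 had -2.52 in R1855L, and the slope of miR-7-5p on library total was 0.63. The slope and its alternatives were chosen after seeing the data, and that of miR-7-5p stayed above 0 in all of them (0.39 with library totals and no composition factor). The 5 reads of miR-375 in R1855L replicate 2 limit its precision.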
